A study of Mus musculus with 6 samples.

Results

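The *Id* genes, the BMP-activated Smads and the inhibitory Smads were followed as a readout of BMP and TGF-β signaling in mouse dental mesenchymal cells (mDMCs). The members were *Id1* to *Id4*, *Smad1*, *Smad5*, *Smad6*, *Smad7* and *Smad9*, found by name in the deposited tables, and all 9 were among the 11386 genes measured. The cells came from molar tooth germs of ICR mouse embryos at embryonic day 14.5 and were either fresh after isolation (P0) or grown on plastic in medium with fetal bovine serum to the first (P1) or the second (P2) passage. All 3 groups were harvested with trypsin, and each was sequenced as 2 libraries, 6 in all. P0 came from dissected tissue loosened from its epithelium with dispase, so it holds whatever other cells the mesenchyme contained. Neither the labels nor the methods say whether the duplicates were separate litters or cultures, so the p-values measure only the spread between these libraries, which may be technical.

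BMP ligands bind paired type I and type II receptors at the cell surface, and the activated type I receptor phosphorylates Smad1, Smad5 and Smad9. These join Smad4, enter the nucleus and switch on target genes, among which *Id1*, *Id2*, *Id3*, *Smad6* and *Smad7* are among the fastest and most widely shared. Id proteins (inhibitors of DNA binding) have a helix-loop-helix domain but no DNA-binding region, pair with E proteins such as Tcf3, Tcf4 and Tcf12, and keep bHLH transcription factors off their E boxes. Smad6 and Smad7 block receptors and R-Smads and so close a negative feedback loop, Smad6 mainly in the BMP branch and Smad7 in both branches. In the tooth germ, BMP signals pass between epithelium and mesenchyme and sustain the odontogenic program of the mesenchyme.

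The values are the authors' normalized values, given in scaled units, of which each passage mean holds 1000000 over all genes. Read depth cannot be had from them. The deposited mean and error of a gene fix its 2 library values but not which library each belongs to. Fold changes are differences of log2(scaled value + 1) and are therefore too small for low genes. Every listed gene had 101 deposited units or more (the listing floor) in at least 2 libraries. Of these deposited units, 18.72 are 1 scaled unit. A gene below the floor in all cultured libraries was thus listed through P0 alone and could only appear as lower. A gene below it in both P0 libraries was listed only through the cultures. A gene was called at a limma adjusted p (Benjamini-Hochberg over all 11386 genes) under 0.05 together with a change of at least 2-fold. By this rule 12.0% of all genes were lower and 12.2% higher in P1, and 14.4% lower and 14.0% higher in P2. The counts of called genes in each list below are to be read beside these shares.

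Dental mesenchyme genes were measured throughout: all 13 markers on the list had values in every passage, with summed levels of 2692.3 and 2992.0 units in P0 (lower and higher values summed over genes), 1981.6 on average in P1 and 1726.6 in P2. Of these 13 markers 7 were called lower in P1 and 7 in P2, with a median log2 fold change of -1.34 and -1.71, and none was called higher. Markers of other cells moved with the passages too. Of 19 measured endothelial markers, 16 were called lower in P1 and 16 in P2, and *Tie1*, *Robo4* and *Cldn5* were listed at 0 in both cultures. Such markers were listed through P0 alone and could only appear as lower. *Ecscr* was called higher in P2 (means of 12.7 units in P0 and 27.0 in P2). *Eng* (23.7 and 34.8) and *Flt1* (32.6 and 50.9) also had higher means in P2, without a call. The summed level of the list went from between 661.2 and 728.8 units in P0 to between 82.4 and 133.5 in P1 and between 97.0 and 162.6 in P2. In both cultures most of the mean level came from *Ecscr*, *Eng* and *Flt1*. Of 10 red cell markers 9 were called lower in both cultures, and of 8 measured dental epithelium markers (20 listed) 7, with 1 called higher. The P0 sums of the epithelium list were 88.0 and 231.4. Other lists moved both ways. Of 6 macrophage markers 4 were lower in both cultures and 1 higher in P2. Of 6 Schwann and neural markers 3 were higher and 3 lower. Of 7 pericyte markers 3 were lower in both, with 1 higher in P1 and 2 in P2. Of 6 muscle markers 1 was higher in both, with 1 lower in P1 and 2 in P2. *Id1*, *Id3*, *Smad6* and *Smad7* are also active in endothelium, and the part of these marker changes in the results below was not tested. In bulk RNA, fewer cells of a type and less RNA per cell cannot be told apart.

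*Id1*, *Id2*, *Smad5* and *Smad9* fell in P1, and *Id1*, *Id2* and *Smad9* fell in P2. Thus 4 of the 9 genes were called lower in P1, where 12.0% of all genes were, and 3 of 9 in P2, where 14.4% were. *Smad9*, in both counts, lay below the listing floor in all cultured libraries and could only appear as lower. Limma called none of the 9 higher in either culture, and dropping the adjustment added none, against 12.2% of all genes in P1 and 14.0% in P2. The median log2 fold change of the 9 genes was -0.69 in P1 and -0.85 in P2, beside 0.02 and 0.01 over all genes. Both cultured libraries lay below both P0 libraries for 8 of the 9 genes in P1 and in P2, as they did for 40.5% and 42.2% of all genes. The exception was *Id4*, higher in both P1 libraries, as 42.0% of all genes were. No member lay above P0 in both P2 libraries, where 42.6% of all genes did. The study itself placed *Id1*, *Id2* and *Smad5* on lists of genes downstream of BMP2 or BMP7 that it drew up from these samples, so their direction is not independent evidence.

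**Figure D1:**
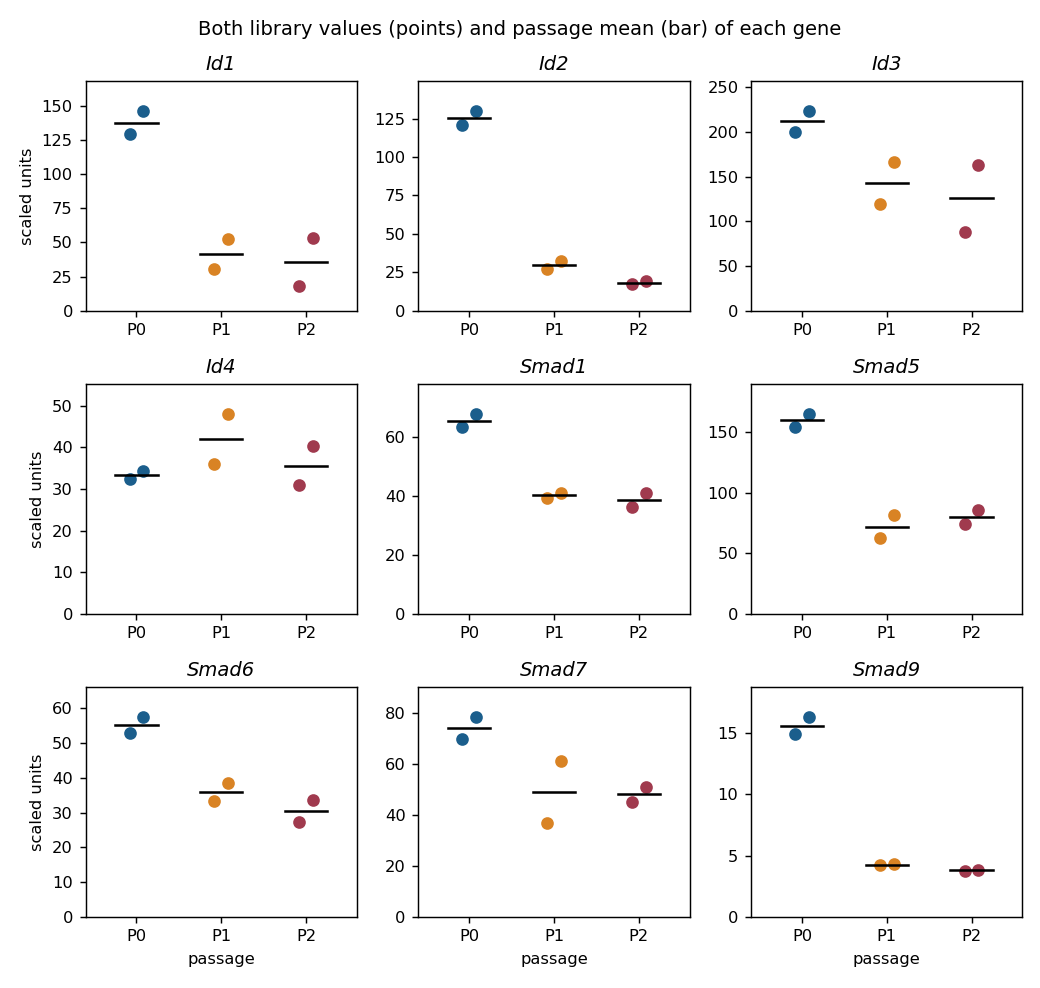
Normalized value in scaled units (y axis, from 0) of each of the 9 genes in P0, P1 and P2 (x axis), with both library values as points and the passage mean as a bar. *Id2* goes from a mean of 125.3 in P0 to 18.1 in P2 with tight duplicates, whereas the P2 libraries of *Id1* lie at 18.3 and 53.3 and those of *Id4* overlap with P0.

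Sequences before the transcription start were examined because *Id2* fell and *Id4*, of the same family, did not. RefSeq windows (GRCm38.p6, 250 bases before to 50 after the start) were matched by symbol for 7 of the 9 genes, not for *Id1* and *Smad7*. They were searched on both strands for 3 motifs. GGCGCC, a palindrome, is the GC-rich element that BMP-activated Smads bind. It was found once each in *Id2*, *Id4*, *Smad5* and *Smad9*, that is, in 4 of 7 windows, and in 11.9% of the 32851 windows of the table. The 7 windows held 60.0% to 73.7% G and C, against a median of 52.7% in the table. Of these 4 genes, *Id2*, *Smad5* and *Smad9* were called lower in P1 and *Id4* was not. The windows without a match, those of *Id3*, *Smad1* and *Smad6*, belong to genes that were not called. In *Smad5* the match lies after the start, at position 24. Whether the element has a part in these changes was not tested. CAGAC, the element bound by Smad3 and Smad4, was found on either strand only in *Id3*, at positions -167 and -68, and in 49.6% of all windows. The E box, read as CANNTG and also a palindrome as written, was found in *Id2*, *Smad5*, *Smad6* and *Smad9* and in 72.3% of all windows. No match of one motif overlapped a match of another. The start in the deposited table was the RefSeq start for *Id2*, *Smad5*, *Smad6* and *Smad9*, and lay 90 to 325 bases away for *Smad1*, *Id4* and *Id3*. The 250 bases before the RefSeq start are shown for the most lowered *Id* gene, for the *Id* gene that was not lower and for the most lowered Smad gene, 5′ to 3′ on the strand of the gene, with the BMP-Smad element in capitals (it starts 231, 148 and 51 bases before the start). They lie at chr12:25096093-25096342 (minus strand), chr13:48260866-48261115 (plus strand) and chr3:54755332-54755581 (plus strand).
Id2: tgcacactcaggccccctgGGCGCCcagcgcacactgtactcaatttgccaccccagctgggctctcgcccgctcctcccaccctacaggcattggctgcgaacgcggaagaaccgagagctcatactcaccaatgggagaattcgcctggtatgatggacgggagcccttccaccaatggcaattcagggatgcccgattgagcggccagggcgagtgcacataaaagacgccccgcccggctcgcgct
Id4: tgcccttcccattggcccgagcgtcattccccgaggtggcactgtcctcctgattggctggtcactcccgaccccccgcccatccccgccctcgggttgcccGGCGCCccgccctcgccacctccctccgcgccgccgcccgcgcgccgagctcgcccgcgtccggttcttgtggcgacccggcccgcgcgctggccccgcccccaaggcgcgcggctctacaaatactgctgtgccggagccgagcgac
Smad9: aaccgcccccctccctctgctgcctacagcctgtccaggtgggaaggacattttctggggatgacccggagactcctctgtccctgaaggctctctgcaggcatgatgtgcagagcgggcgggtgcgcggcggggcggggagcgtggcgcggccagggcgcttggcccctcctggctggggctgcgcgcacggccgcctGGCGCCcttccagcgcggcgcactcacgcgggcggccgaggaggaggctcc
A match describes the letters and is not a bound site.

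*Id2* had the largest fall of the 9 genes. *Id2* (ENSMUSG00000020644) lies on the minus strand of chromosome 12 from 25093801 to 25096092 (mm10) in 3 exons. Its libraries had 120.7 and 129.9 scaled units in P0, 26.8 and 32.2 in P1, and 17.0 and 19.1 in P2. Every cultured library was thus far below every fresh one, and both P2 libraries were below both P1 libraries. The log2 fold change was -2.06 in P1 (standard error 0.13, limma adjusted p = 1.1e-04) and -2.73 in P2 (standard error 0.13, limma adjusted p = 3.62e-05). P2 thus held 14.4% of the P0 level. Of all genes, 2.7% had a more negative fold change in P2.

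*Id1* also fell in both cultures, but its duplicates spread widely in culture. *Id1* (ENSMUSG00000042745) lies on chromosome 2 from 152736251 to 152737410 and has 2 exons. It had 129.6 and 146.5 units in P0, 30.7 and 52.9 in P1, and 18.3 and 53.3 in P2. The cultured libraries did not reach the fresh ones, and the P1 range lay within the P2 range. The fold change was -1.75 in P1 (standard error 0.49, 95% interval -2.95 to -0.55, limma adjusted p = 0.0239) and -2.10 in P2 (standard error 0.49, 95% interval -3.30 to -0.90, limma adjusted p = 0.0108). Over the 4 pairs of library values it ranged from -2.94 to -1.27 in P2. At an adjusted p under 0.01 *Id1* was called in neither passage.

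*Id3* and *Id4* were not called. *Id3* (ENSMUSG00000007872), on chromosome 4 from 136143497 to 136145392, had 200.0 and 223.4 units in P0, 118.9 and 166.3 in P1, and 87.6 and 163.4 in P2. All its cultured values were below the fresh ones, with wide gaps between duplicates. Its fold change was -0.58 in P1 (95% interval -1.33 to 0.16, limma adjusted p = 0.145) and -0.82 in P2 (95% interval -1.56 to -0.07, limma adjusted p = 0.056), so a fall of 2-fold is within both intervals. *Id4* (ENSMUSG00000021379), on chromosome 13 from 48261427 to 48264036, had 32.4 and 34.3 units in P0, 36.1 and 48.0 in P1, and 30.9 and 40.3 in P2. Its P1 libraries lay above P0 and its P2 libraries overlapped with P0. The fold change was 0.31 in P1 (95% interval -0.13 to 0.76) and 0.08 in P2 (95% interval -0.36 to 0.53), which leaves out a 2-fold change in either direction. The intervals of *Id1* and *Id2* in P2 do not reach that of *Id4*.

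The proportions within the family therefore shifted. Per kilobase of the listed transcript (934 nt for *Id1*, 1270 for *Id2*, 1278 for *Id3* and 3849 for *Id4*), the passage means of the 4 *Id* genes summed to 420.7 units in P0, 190.4 in P1 and 160.0 in P2. *Id3* was the highest of the 4 in every passage and went from 39.4% of this sum in P0 to 61.4% in P2. *Id2* went from 23.4% to 8.9% and *Id1* from 35.1% to 24.0%. *Id4* was the lowest in every passage, with 2.1% in P0 and 5.8% in P2. These shares come from passage means, because the values of different genes cannot be assigned to the same library, and they have no error. The lengths are those of 1 transcript a gene.

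**Figure D2:**
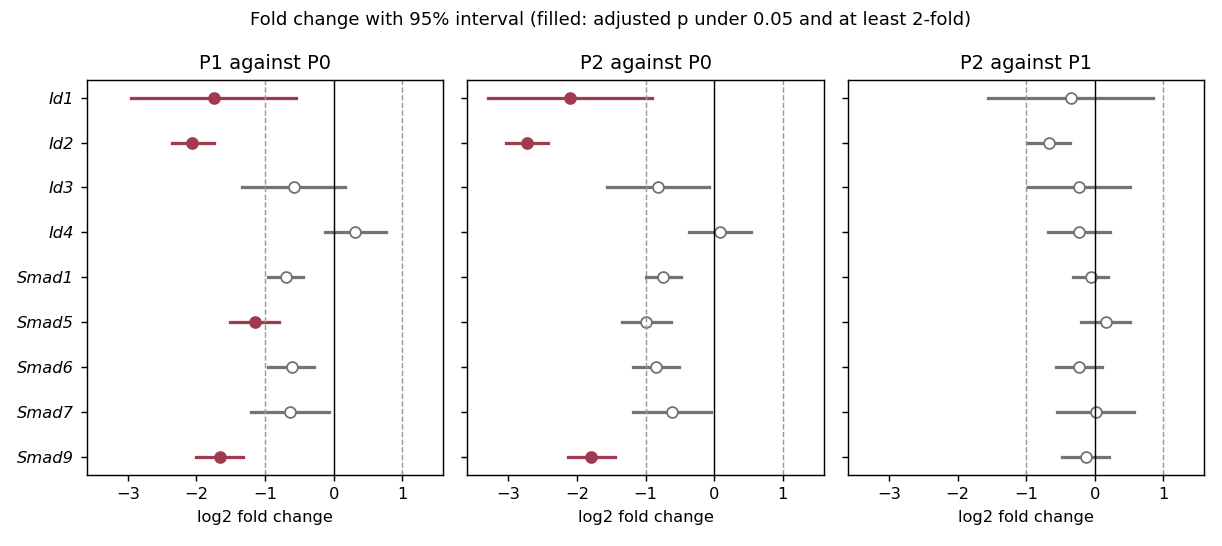
Log2 fold change (x axis) of each gene (y axis) in the 3 comparisons, with the limma estimate as a point and its 95% interval as a line. Filled points passed an adjusted p of 0.05 and a 2-fold change (dashed lines at -1 and 1), as did *Id1*, *Id2*, *Smad5* and *Smad9* in P1 against P0, and no gene in P2 against P1.

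Among the BMP-activated Smads, *Smad9* fell in both cultures, *Smad5* was called in P1, and *Smad1* changed less than 2-fold. *Smad9* (ENSMUSG00000027796), which encodes Smad8/9, the least studied R-Smad of this branch, lies on chromosome 3 from 54755582 to 54801257. It had 14.9 and 16.3 units in P0, 4.22 and 4.27 in P1, and 3.74 and 3.85 in P2. The 4 cultured values were close together and all far below the fresh ones. They lay below the listing floor, at 79 and 80 deposited units in P1 and 70 and 72 in P2. *Smad9* was thus listed through P0 alone, and being lower in culture was a condition of its listing. The fold change was -1.66 in P1 (standard error 0.14, limma adjusted p = 2.87e-04) and -1.79 in P2 (standard error 0.14, limma adjusted p = 1.59e-04). With a pseudocount of 10 units, which is above the cultured level, the changes became -0.84 and -0.89 and *Smad9* was no longer called.

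*Smad5* (ENSMUSG00000021540), on chromosome 13 from 56703010 to 56742377, had 154.4 and 165.0 units in P0, 62.6 and 81.3 in P1, and 74.3 and 86.0 in P2. The fresh libraries were above all cultured ones, and P1 and P2 overlapped. Its change was -1.15 in P1 (standard error 0.15, limma adjusted p = 0.00129) and -0.99 in P2 (standard error 0.15, limma adjusted p = 0.00183). The P2 value lay just short of 2-fold and was called with median-ratio scaling (-1.0), so the difference in calls between P1 and P2 is one of the threshold, and P2 against P1 gave 0.16 (95% interval -0.20 to 0.52).

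*Smad1* (ENSMUSG00000031681), on chromosome 8 from 79338395 to 79399518, had 63.2 and 67.7 units in P0, 39.3 and 40.9 in P1, and 36.3 and 40.9 in P2. Fresh and cultured values were apart, with close duplicates. The log2 fold change was -0.69 in P1 (95% interval -0.95 to -0.44, limma adjusted p = 0.00227) and -0.75 in P2 (95% interval -1.0 to -0.49, limma adjusted p = 0.00135). *Smad1* thus passed the p threshold and not the fold threshold. Per kilobase, *Smad5* had 24.3 and *Smad1* 21.1 units in P0, against 2.90 for *Smad9*. In P2 the values were 12.2, 12.5 and 0.707.

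Neither inhibitory Smad was called in P1 or P2. *Smad6* (ENSMUSG00000036867), on chromosome 9 from 63953076 to 64022059, had 53.0 and 57.5 units in P0, 33.3 and 38.4 in P1, and 27.3 and 33.5 in P2. Its fold change was -0.61 in P1 (95% interval -0.95 to -0.28, limma adjusted p = 0.0105) and -0.85 in P2 (95% interval -1.18 to -0.51, limma adjusted p = 0.00254). As for *Smad1*, the difference from P0 passed the p threshold alone. With that threshold alone, 6 of the 9 genes were lower in P1 and 6 in P2, where 29.1% and 32.1% of all genes were. None was higher by it, against 29.6% of all genes in P1 and 31.6% in P2.

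*Smad7* (ENSMUSG00000025880), on chromosome 18 from 75367529 to 75395935, had 70.1 and 78.5 units in P0, 36.9 and 61.2 in P1, and 45.3 and 51.0 in P2. The P1 duplicates enclosed those of P2, and all 4 were below P0. Its fold change was -0.63 in P1 (95% interval -1.20 to -0.07, limma adjusted p = 0.0568) and -0.62 in P2 (95% interval -1.18 to -0.05, limma adjusted p = 0.0577), which did not pass. Per kilobase, *Smad6* and *Smad7* together had 0.75 of the summed level of *Smad1*, *Smad5* and *Smad9* in P0, 0.95 in P1 and 0.85 in P2. These ratios come from passage means and have no error.

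Between P1 and P2 none of the 9 genes was called by limma, where 0.211% of all genes were called lower and 0.0878% higher. By the adjusted p alone none passed either, with 0.905% of all genes lower and 0.167% higher. *Id2* alone had an unadjusted p under 0.05, at a log2 fold change of -0.67 (standard error 0.13, limma adjusted p = 0.0773), and no member had one beside a 2-fold change. The libraries were apart for *Id2* and *Smad9* (both lower in P2, as for 19.9% of all genes) and overlapped for the other 7. In no member were both P2 libraries above both P1 libraries, as in 18.4% of all genes. The library values of *Id2* and *Smad9* thus ran P0 above P1 above P2, with the last step of each not called. For *Smad9* this step was a log2 fold change of -0.13 (standard error 0.14, limma adjusted p = 0.757). The test therefore gave no order between the P1 and P2 levels of *Smad9*. For *Id1*, *Id3*, *Smad1*, *Smad5*, *Smad6* and *Smad7* both P0 libraries lay above all cultured ones, and P1 and P2 could not be ordered. For *Id3* and *Smad7* the difference from P0 did not pass the adjusted p in either culture in the fit to all 6 libraries. With only the 2 compared passages fitted, *Id3* passed it in P1 (limma adjusted p = 0.0392) and not in P2 (0.0634). In that fit *Smad7* passed it in P2 (limma adjusted p = 0.00683) and not in P1 (0.0786). These changes stayed under 2-fold. For *Id4*, P1 had the highest mean, and its levels were not separated by the test in any pair of passages.

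The duplicates of *Id1* and *Id3* were far apart in culture and closer in P0. Their P0 gaps (0.18 and 0.16 on the log2 scale) were still above the P0 median of 0.10. Among genes of like level in P0 they were wider than in 86.2% and 82.9%. The *Id1* values differed 1.13-fold in P0, 1.72-fold in P1 and 2.92-fold in P2. On the log2 scale the P2 gap was 1.49, beside a median of 0.17 over all genes, and 62 of 11386 genes had a gap at least as wide. *Id3* had gaps of 0.16, 0.48 and 0.89, the last of them wider than in 97.2% of all genes. *Smad7* had a gap of 0.72 in P1, wider than in 95% of genes, and 0.17 in P2. *Id2* stayed at 0.25 or less in every passage. Gaps of this size set the standard errors of *Id1* (0.49), *Id3* (0.30) and *Smad7* (0.23), against 0.10 to 0.18 for the other 6 genes. Whether the higher value of *Id1* and that of *Id3* come from the same library is not known.

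**Figure D3:**
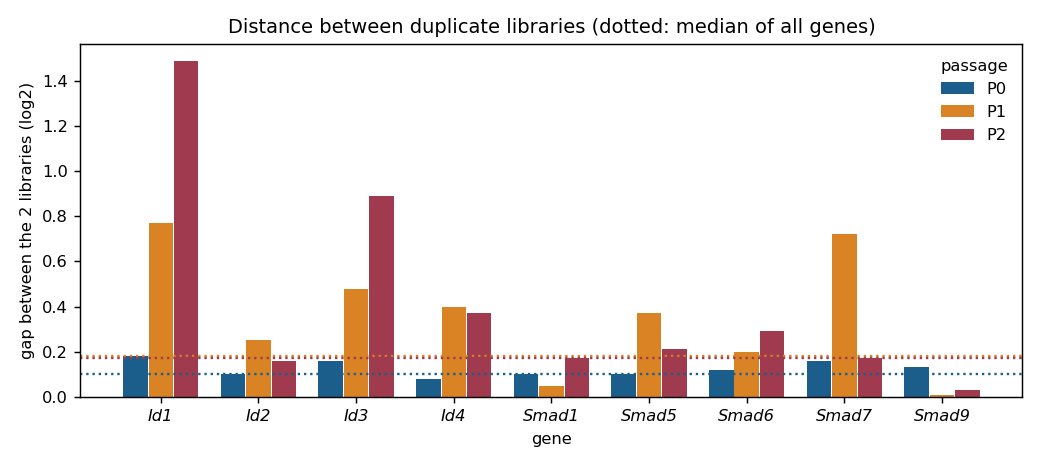
Difference between the 2 libraries of a passage on the log2(scaled value + 1) scale (y axis) for each gene (x axis), as 1 bar per passage, with the median of all genes as a dotted line in the same color (0.10 in P0, 0.18 in P1 and 0.17 in P2). *Id1* and *Id3* stand out in P1 and P2, and *Id1* and *Smad7* have the widest gaps in P1.

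Most measured BMP ligands were lower in culture, and *Bmpr1a* and *Bmpr2* did not pass the test. *Bmp2*, *Bmp3*, *Bmp5*, *Bmp6*, *Bmp7* and *Gdf10* lay below the listing floor in every cultured library. They were thus listed through P0 alone and could only appear as lower. Their falls therefore do not show how BMP ligands changed as a group. Of 16 measured BMP ligands, receptors and co-receptors, 7 were called lower and 2 higher in P1, and 7 lower and 1 higher in P2. The 7 were the ligands *Bmp2*, *Bmp3*, *Bmp5*, *Bmp6*, *Bmp7* and *Gdf10* and the co-receptor *Rgmb*. *Bmp4*, the ligand best known from early dental mesenchyme, rose by 1.13 in P1 (limma adjusted p = 0.0111) and had a log2 fold change of 0.86 in P2, without a call in P2. The study, by contrast, found no significant change of *Bmp4* in culture by qRT-PCR. It described the qRT-PCR and RNA-seq levels of *Bmp4* as comparable. *Gdf10*, a BMP family ligand, had 25.1 and 35.8 units in P0, 2.03 and 2.88 in P1, and 0.962 and 2.24 in P2 (log2 fold change -3.62 in P2, limma adjusted p = 2.11e-04). The ligand *Bmp6* fell by 3.29 on the log2 scale in P2, from 20.3 and 25.9 units to 1.18 and 1.76. *Bmp7* had a mean of 9.83 units in P0 and 0.0801 in P1 and was listed at 0 in P2. The type I receptor *Bmpr1a* had means of 256.6, 233.8 and 246.8 units and changed by -0.14 in P1 and -0.06 in P2, and the type II receptor *Bmpr2* changed by -0.26 and -0.07, without a call. *Bmpr1b*, another type I receptor, rose by 1.28 in P1 and by 1.54 in P2 from a mean of 1.92 units.

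Antagonists moved both ways. Of 14 measured, 4 were called higher and 4 lower in P1, where 12.2% and 12.0% of all genes were. In P2 3 were called higher and 4 lower, where 14.0% and 14.4% of all genes were. *Grem1*, a secreted BMP antagonist, had 17.2 and 18.7 units in P0, 1050 and 1168.1 in P1, and 1326.4 and 1504 in P2. *Fstl3*, which binds activins and BMPs, rose by 3.08 in P2. *Sostdc1*, an antagonist known from tooth patterning, fell by 5.42 in P2, from 95.7 and 105.0 units to 1.07 and 1.71. The cultured values of *Sostdc1* lay below the listing floor, as did the P0 values of *Fstl3*. *Bambi*, a decoy receptor that BMP signaling itself induces, had 65.6 and 69.4 units in P0 and 13.6 and 14.8 in P2 (-2.17, limma adjusted p = 1.04e-04).

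Other genes known to respond to BMP were mostly lower. Of 17 measured, 9 were called lower in P1 and 9 in P2, with 1 and 3 called higher, and the list had a median of -1.15 in P1 and -1.49 in P2. *Sp7*, a transcription factor of osteoblasts, fell by 4.56 in P2. *Hey1*, a target of Notch and BMP signaling, fell by 3.68, and *Lef1*, a nuclear partner of β-catenin, had a log2 fold change of -3.74. *Sp7*, *Hey1*, *Lef1* and *Msx2* lay below the listing floor in all cultured libraries and could only appear as lower. *Grem1*, counted here too, was the largest exception. *Msx1*, a homeobox target of BMP4 in dental mesenchyme, had 244.9 and 247.5 units in P0, 192.1 and 259.4 in P1, and 197.1 and 242.3 in P2, and was not called. The study, by contrast, reported a significant fall of *Msx1* in both cultures by qRT-PCR, and described its qRT-PCR and RNA-seq levels as comparable.

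Genes known to respond to TGF-β were mostly higher. Of 27 measured, 16 were called higher and 5 lower in P1, and 16 higher and 5 lower in P2, with medians of 1.33 and 1.96. *Ltbp2*, a latent TGF-β binding protein gene, had 2.94 and 3.31 units in P0 and 310.8 and 332.1 in P2. *Cdkn2b*, a cyclin-dependent kinase inhibitor gene, was at 0.214 in both P0 libraries and at 66.2 and 106.5 in P2. *Ltbp2*, *Cdkn2b* and *Cdkn1a* lay below the listing floor in P0 and were thus listed only through the cultures. *Tagln* and *Acta2*, smooth muscle genes, rose by 6.22 and 8.09 in P2. *Acta2* had 7147.5 units in both P1 libraries and 7149.5 in both P2 libraries, and the higher P2 value of *Col1a1* was 7149.5 too. Such repeated values can come from normalization by rank, so the equal duplicates of *Acta2* do not measure its spread. The 5 genes called lower in P2 were *Atf3*, *Junb*, *Klf10*, *Tsc22d1* and *Skil*, of which *Atf3* and *Junb* are also immediate early genes. *Cdkn2b*, *Tagln* and *Acta2* are known to respond to culture itself as well, and this was not tested.

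**Figure D4:**
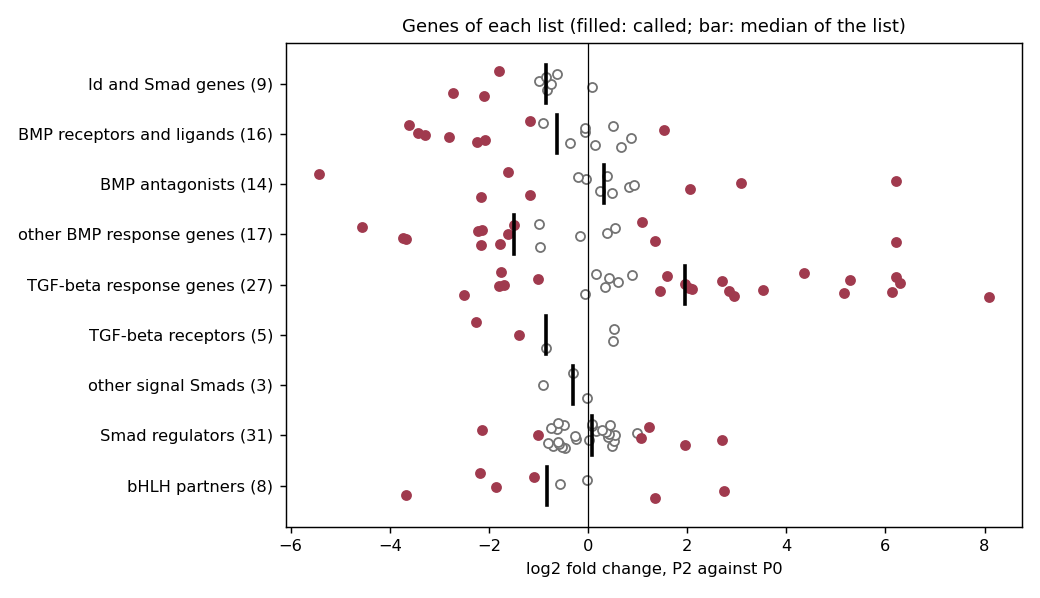
Log2 fold change of P2 against P0 (x axis) for every measured gene of each list (y axis, number of genes in brackets), with called genes filled and the median of the list as a bar. The *Id* and Smad genes have a median of -0.85, other BMP response genes -1.49 and TGF-β response genes 1.96. Some genes are on more than 1 list.

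No other signaling Smad was called. *Smad2*, an R-Smad of the TGF-β branch, had means of 75.0, 71.9 and 73.3 units in P0, P1 and P2 (log2 fold change -0.03 in P2). *Smad3*, the other R-Smad of that branch, had 137.0, 77.5 and 73.4 (-0.90 in P2, limma adjusted p = 0.00122, under 2-fold). *Smad4*, the shared partner, had 104.2, 82.4 and 84.7 (-0.30 in P2, limma adjusted p = 0.0306). Of 5 TGF-β receptors, *Tgfbr1* (-1.39 in P2), the type I receptor, and *Tgfbr3* (-2.27), the co-receptor betaglycan, were called lower, and *Tgfbr2* (0.37 in P1 and 0.53 in P2) was not called. Of 31 measured Smad regulators, 4 were called higher and 2 lower in P1 and in P2. *Pmepa1*, a TGF-β target that holds back R-Smads, rose by 2.70 in P2, *Ldlrad4*, a relative of it, by 1.96 and *Usp15*, a deubiquitinase, by 1.22. *Tgif2*, a corepressor, fell by 2.13. The Smad ubiquitin ligases *Smurf1* (0.36 in P1 and 0.54 in P2) and *Smurf2* (0.44 and 0.43) were not called.

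Partners of Id proteins were measured in part. Of 24 bHLH genes on the list 8 were in the tables, of which 4 were called lower in both P1 and P2, 1 higher in P1 and 2 higher in P2. The E protein gene *Tcf12* had 553.7 and 612.1 units in P0, 172.0 and 172.9 in P1, and 159.6 and 162.8 in P2, a log2 fold change of -1.85 in P2 (limma adjusted p = 3.63e-05). The other E protein genes, *Tcf3* (-0.51 in P1 and -0.57 in P2) and *Tcf4* (-0.24 and -0.03), were not called. *Twist2*, a mesenchymal bHLH factor, fell by 2.18 in P2, and *Scx*, the tendon factor scleraxis, rose by 2.74.

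The genes nearest to each member in their pair of log2 ratios of passage means (P1 over P0 and P2 over P0) were sought among genes with at least 10 units in a passage, over 3 passage means. For *Id1*, with ratios of -1.70 and -1.92, the nearest were *Efs* (-1.67 and -1.91), an adaptor protein gene, and *Adcy4* (-1.70 and -1.86), an adenylyl cyclase gene. For *Id2*, with -2.05 and -2.73, they were *Flt4* (-2.0 and -2.69), a lymphatic endothelial receptor gene, and *Cdca7* (-1.99 and -2.66), a gene linked to the cell cycle. For *Smad9* they were *Vstm4* and *Gm17275*, for *Smad5* *Josd1* and *Mtss1*, for *Smad1* *Dyrk1a* and *Fam188b*, for *Smad6* *Tpgs2* and *Saal1*, for *Smad7* *Dot1l* and *Zfp444*, for *Id3* *2310003H01Rik* and *Zfp706*, and for *Id4* *Trappc1* and *Timm13*. Such profiles are common for the genes that changed less. Within a distance of 0.2 there were 12 genes for *Id2*, 53 for *Id1* and 81 for *Smad9*, against 664 for *Smad7* and 626 for *Id4*.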

How the data were processed

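Libraries were made with the TruSeq kit and sequenced on a HiSeq instrument, 2 per passage. The authors aligned to mouse mm10 transcripts (bowtie), quantified with RSEM (1.1.21 in the submitters' processing notes, another version in the methods) and corrected for GC content with EDASeq. The deposited score is their normalized mean with an error for each gene, in a separate table for P0, P1 and P2. The mean plus or minus the error times the square root of 2 was whole for all 11386 genes (tolerance 1e-06) and was taken as both library values. When ranked, 80.1% of the 22772 values matched between P0 and P1, as quantile-normalized libraries would, so no depth can be read from them. A single entry per table is left out.

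Values were divided by the passage total (18.72 deposited units are 1 scaled unit) and log2(value + 1) was fitted with limma 3.58.1 (R 4.3.3, trend) to all 6 libraries without a replicate term, with 3 residual degrees of freedom and 3.06 from the prior. Requiring 1 unit in 2 libraries removed no gene. The procedure was tested on simulated data. Of 50 genes changed 2-fold, 24 were called, and of 50 changed 4-fold all 50, with 2 false calls among the unchanged genes. The 2-fold changes lay exactly on the fold threshold, which largely sets the share called, so it does not measure power. The simulated spread depended on level alone and left out wide gaps of single genes such as *Id1*. The false-call count therefore need not hold for these data. A true change near 2-fold can thus go uncalled. Transcript lengths are those of GENCODE, promoters those of RefSeq. Alternatives changed the pseudocount, filter, scaling, passages fitted, variance trend or thresholds. Figures were drawn with matplotlib 3.10.9 in Python 3.11.15.

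The members and lists were chosen with earlier results of these data known. Named were all 9 members, of each list up to 4 called genes with the largest change in P2 against P0, uncalled examples, and the 2 genes nearest to each member. Further genes (*Bmp2*, *Bmp3*, *Bmp4*, *Rgmb*, *Bmpr1b* and those called lower among the TGF-β response genes) were added after their values were seen.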

Additional observations from a re-analysis of the deposited data

How the results depend on the processing

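Over 99 combinations of gene and alternative setting per comparison, 95 in P1 against P0, 93 in P2 against P0 and 99 in P2 against P1 kept direction and call. Part of this was fixed in advance. The setting without a filter repeats the fit reported, because the filter removed no gene. In P2 against P1 no member had a call to lose. The calls lost were those of *Smad9* with a pseudocount of 10 (-0.84 in P1 and -0.89 in P2) and of *Id1* at an adjusted p under 0.01 (-1.75 and -2.10). The calls gained were *Smad5* in P2 with median-ratio scaling (-1.0) and, with no fold minimum, *Smad1* (-0.69 and -0.75) and *Smad6* (-0.61 and -0.85) in P1 and P2 and *Smad5* (-0.99) in P2, so that 6 of the 9 genes instead of 3 were lower in P2. Over all genes, a pseudocount of 10 gave 752 higher and 758 lower in P1, 946 and 978 in P2, and 4 lower in P2 against P1. With no fold minimum there were 3367 higher and 3318 lower in P1, 3596 and 3652 in P2, and 19 and 103 in P2 against P1. For P2 against P1, limma called 0 genes higher and 0 lower when only these 2 passages were fitted (95 of 11219 at an unadjusted p under 0.05 and 2-fold), 0 and 2 without the variance trend (106 so), and 0 and 0 at an adjusted p under 0.01 (105 so), against 10 and 24 in the fit reported. Median-ratio and trimmed-mean scaling moved log2 fold changes by at most 0.024. No paired analysis was possible because the tables do not show which library value belongs to which replicate. For the same reason no whole library could be left out, and ranges over pairs of library values, without a test, took its place. These ranges kept the sign of every called change of the 9 genes.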

Other observations

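Further genes of the lists had P2 duplicates about as far apart as those of *Id1* or farther, chosen after their values were seen. *Atf3*, an immediate early gene that cooperates with Smad3, had 11.3 and 43.1 scaled units in the P2 libraries and 7.16 and 24.8 in P1, beside 125.2 and 135.6 in P0. *Junb*, an AP-1 gene, had 91.1 and 310.0 in P2, 116.4 and 173.5 in P1, and 580.9 and 593.3 in P0. *Hes1*, a bHLH repressor and Notch target, had 66.2 and 184.6 in P2, 79.0 and 137.9 in P1, and 40.3 and 44.5 in P0. Their P2 gaps on the log2 scale were 1.84, 1.76 and 1.47, wider than in 99.8%, 99.7% and 99.4% of all genes. *Chrdl1*, a BMP antagonist gene, had 6.09 and 20.3 in P2, and the muscle gene *Myog* 7.27 and 36.9. Whether the higher values of these genes come from the same library as the higher value of *Id1* cannot be read from the tables.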
